A study of Mus musculus with 6 samples.

Results

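Imprinted genes, which mammals express from only the maternal or only the paternal copy, were examined in mouse embryonic fibroblasts (MEF) on day 3 of reprogramming, in WT cells and in cells with the gene of the ubiquitin ligase RNF20 knocked out. The members were chosen by gene symbol from a list of 35 imprinted genes and transcripts. Of these, 26 were found among the 16982 genes of the count table, and 23 passed the filter on low counts. The other 3 counted members (Phlda2, Magel2 and Ascl2) were too low to be tested. The remaining 9 (H19, Airn, Meg3, Rian, Mirg, Kcnq1ot1, Peg13, Snurf and Dcn-as) were not analysed here. Of these 9, 7 are non-coding RNAs in the GENCODE M21 annotation, whereas 16416 of the 16486 table genes matched to that annotation are protein-coding and 31 are long non-coding RNA genes. The members below are therefore nearly all the protein-coding side of each imprinted locus.

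Imprinted genes lie in clusters that are controlled by stretches of DNA methylated on 1 parental copy only, set in the egg or the sperm and kept through cell division by DNMT1, UHRF1 and the ZFP57-TRIM28 complex. Many of them act on embryonic growth: IGF2 is a growth factor, IGF2R removes it from the cell surface, GRB10 restrains signalling from insulin-type receptors, and CDKN1C (p57) blocks the cell cycle. In several clusters a non-coding RNA made from 1 parental copy keeps neighbouring genes silent on that copy. RNF20 attaches ubiquitin to histone H2B over transcribed genes, and the study asked what its loss does to the transcriptome early in reprogramming.

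RNA was sequenced from 3 WT (Rnf20+/+) and 3 knockout (KO, Rnf20-/-) cultures, all of C57BL/6 background and all harvested on day 3 after retroviruses brought in the reprogramming factors OCT4, SOX2, KLF4 and C-MYC (OSKM). The methods describe MEF from mid-gestation embryos carrying floxed Rnf20 and a ubiquitously expressed, tamoxifen-inducible Cre, in which 4-OH tamoxifen induced the deletion. The labels list all 6 cultures as untreated, and whether the WT cultures carried the Cre or received the drug is not stated in the sources used here. The methods also describe replating infected cells on a layer of mitomycin-treated MEF 2 days after infection, and reads from such cells could not be told apart from those of the reprogrammed cells. Because all cultures are of 1 inbred background and the files hold counts per gene, the parental copy that made each RNA was not measured, and "maternal" and "paternal" below are the copies known from textbooks. The labels do not say that replicates were separate cultures or animals, so p-values measure only the spread between these libraries. In bulk RNA, fewer cells of a type and less RNA per cell cannot be told apart.

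The libraries held 20545442 to 21746898 counts, in which 3 counts equal 0.138 to 0.146 CPM (read counts scaled to a common library size, with TMM factors). Rnf20 lay at 106 to 107 CPM in WT and at 16.4 to 18.7 CPM in KO, so every library matched its label. KO replicate 3 stood apart: 12% and 11.6% of the tested genes differed over 2-fold between it and KO replicates 1 and 2, against 2.23% between those 2 and 1.5 to 2.55% between WT libraries. Its summed level of 12 fibroblast markers was 22000 CPM, against 32600 and 40700 CPM in KO replicates 1 and 2 and 31100 to 33800 CPM in WT. The difference from WT lay mainly in Col1a1, Col1a2 and Col3a1, at 7060, 4370 and 1900 CPM. In WT these collagen genes lay at 9280 to 10600, 8580 to 9000 and 5250 to 5940 CPM. Vim, Fn1, S100a4 and Pdgfrb were not below their WT ranges in KO replicate 3. The 14 macrophage markers summed to 272 CPM in KO replicate 3, against 67.5 to 144 CPM in the other libraries. Lyz2 made up 158 of these 272 CPM. Adgre1 (31.9 against 1.76 to 4.27 CPM), Cd14 (25.4 against 3.94 to 6.17 CPM) and Csf1r (12.2 against 5.47 to 7.83 CPM) were also highest there. The same held, at lower levels, for Ptprc, Tyrobp, Aif1, Cx3cr1 and Fcgr1. Cd68, C1qb and C1qc lay within the range of the other libraries. Mrc1 (1.90 against 5.80 to 17.7 CPM) and C1qa (3.71 against 3.80 to 8.26 CPM) were lowest there. The summed markers of epithelial cells (22.2 against 54.2 to 78.0 CPM), neural cells (72.0 against 131 to 156 CPM) and endothelial cells (33.6 against 48.8 to 67.6 CPM) were also lowest in KO replicate 3. Each of these sums rested there mainly on 1 gene, Krt19 (18.4 CPM), Stmn2 (50.1 CPM) and Tek (30.7 CPM). Krt8 lay at 0.714 CPM in that library, against 28.4 to 30.3 CPM in WT. Cdh1, Krt18, Cldn3, Epcam and Esrp1 were also below their WT ranges there. Krt19 was above its WT range of 12.7 to 15.4 CPM in that library but below KO replicates 1 and 2 (43.2 and 29.7 CPM). Cldn4, with 3 counts in each WT library, was also above WT there. Most epithelial markers thus fell in KO replicate 3, but the sums do not show an even fall of all markers. Transcripts of 4 Y-linked genes summed to 227 to 266 CPM in WT and in KO replicate 2 and were at or near 0 in KO replicates 1 and 3. The results that rest on KO replicate 3 are therefore given with and without it.

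The sequences before the start sites of 3 loci are shown first, because the results below concern these loci. H13 and Mcts2 are a nested pair that moved in opposite directions. Peg3 and Usp29 start back to back and were both below WT in every KO library. Mest had its lowest level in KO replicate 3. The sequences come from RefSeq for GRCm38.p6, where 27 of the 35 members had at least 1 start site. Capitals mark TGCCGC, the core letters of the motif of ZFP57, or their reverse complement GCGGCA. Between the starts of Peg3 and Usp29 (chr7:6730420-6730582, plus strand as Usp29 reads) lie 163 bases with 5 CpG and no such match. H13 (chr2:152669211-152669460, plus strand) has 250 bases with 18 CpG and no match before its start. Mcts2, a retrogene (a gene copied back from a messenger RNA) in an intron of H13, starts 17.7 kb further along the same strand, and 137 bases before its first annotated exon (chr2:152686898-152687034, plus strand) hold 12 CpG and 1 match. The 250 bases before an internal start of Mest (chr6:30737800-30738049, plus strand) hold 14 CpG and 2 matches.
Peg3-Usp29: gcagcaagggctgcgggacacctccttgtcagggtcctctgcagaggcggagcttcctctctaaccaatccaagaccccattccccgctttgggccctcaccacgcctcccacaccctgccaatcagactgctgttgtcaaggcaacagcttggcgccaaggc
H13: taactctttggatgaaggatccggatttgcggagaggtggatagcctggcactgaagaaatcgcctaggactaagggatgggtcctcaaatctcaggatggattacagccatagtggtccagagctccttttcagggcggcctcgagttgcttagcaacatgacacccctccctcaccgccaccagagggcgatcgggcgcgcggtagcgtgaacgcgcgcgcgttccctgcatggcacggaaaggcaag
Mcts2: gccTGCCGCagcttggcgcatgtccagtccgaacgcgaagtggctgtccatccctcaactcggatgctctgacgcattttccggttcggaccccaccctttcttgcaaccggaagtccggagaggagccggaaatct
Mest: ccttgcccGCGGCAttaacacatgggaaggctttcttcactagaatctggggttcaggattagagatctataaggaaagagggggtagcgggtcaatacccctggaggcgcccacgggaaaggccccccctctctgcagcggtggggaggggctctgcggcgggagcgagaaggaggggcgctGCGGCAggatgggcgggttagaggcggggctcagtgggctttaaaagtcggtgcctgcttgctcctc
TGCCGC on either strand was found in 13 of 41 windows of the members (31.7%) and in 11.6% of all 32851 windows, each 300 bases from 250 before to 50 after a start. The median window held 15 CpG for the members and 7 for all starts, so the windows also differ in CpG content. Windows of 1 gene overlap, and those of Mest from 30737800 and 30737803 hold the same matches. Snrpn and Snurf share 1 window with a match, which was counted under both names. The members' windows include those of members not analysed here, such as Meg3 and Airn. GCCATNTT, part of the YY1 motif, was in 2.44% of the members' windows and 6.05% of all, and GGGGCGGGG, an SP1 motif, in 9.76% and 11.4%. A core motif of CTCF was in 0 member windows and 0.0365% of all. These are matches of letters and not measured binding.

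Of the 23 tested imprinted genes, 3 were higher and 3 were lower in KO at an adjusted p under 0.05 (edgeR's quasi-likelihood test, with p-values adjusted by Benjamini and Hochberg's method over 13386 genes). H13, Impact and Slc22a18 rose, and Rtl1, Sgce and Mcts2 fell, by less than 2-fold each. Of all genes tested, 16.4% were higher and 16.6% lower by the same rule, or 33.0% in either direction, against 26.1% of the tested members, so the members did not stand out by the number of calls. At the thresholds of the study (FDR under 0.01, over 2-fold and FPKM over 1), 3.59% of all genes and 0 members passed, and at an adjusted p under 0.01 alone 9.88% and 0. At an unadjusted p under 0.05, 5 members were higher and 5 lower. The median log2 fold change was 0.064 over the tested members and -0.00032 over all genes. The libraries of the genotypes did not overlap for 15 of the 23 members, beside 54.8% of all genes. Only KO replicates 1 and 3 lack Y-linked transcripts, so a Y term leaves the genotype difference to KO replicate 2 against WT. Such a fit cannot separate genotype from what is particular to that library. With a term for Y-linked transcripts in the fit, 0.814% of all genes and 0 members passed (edgeR's quasi-likelihood test), 3 members being higher and 2 lower at an unadjusted p under 0.05. In the 4 libraries with Y-linked transcripts, where KO is replicate 2 alone and was assumed to vary like WT, 4 members were higher and 6 lower, beside 17.4% and 17.7% of 13756 genes. When 1 WT library was left out, only H13 (without WT replicate 1 or 3) or no member (without WT replicate 2) passed, while 5.11 to 7.01% of all genes were then higher and 5.17 to 7.31% lower.

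**Figure D1:**
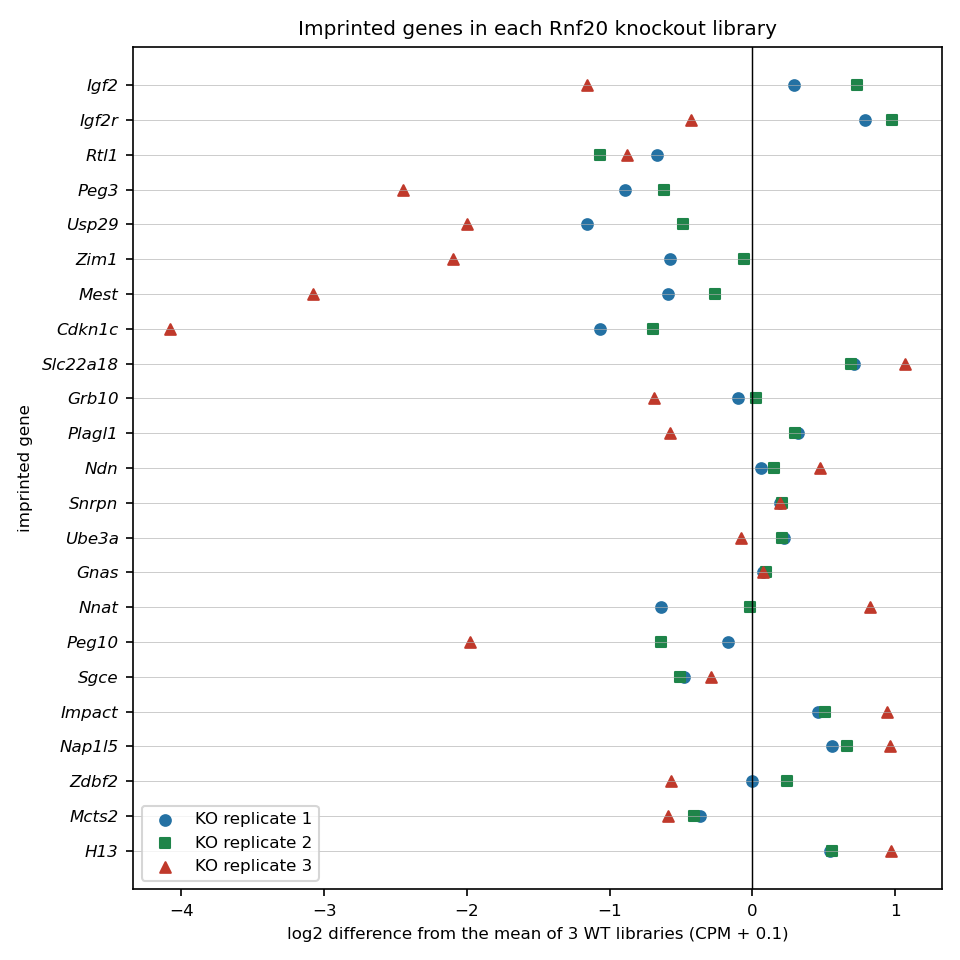
Difference of each KO library from the mean of the 3 WT libraries on the log2(CPM + 0.1) scale (x axis) for the 23 tested imprinted genes (y axis), with KO replicate 1 as circles, 2 as squares and 3 as triangles. The 3 KO libraries lie close together for Snrpn, Gnas, Sgce and Mcts2, whereas KO replicate 3 lies far to the left for Cdkn1c (-4.08) and Mest (-3.08).

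The nested pair H13 and Mcts2 moved apart. H13 (ENSMUSG00000019188, chr2:152669461-152708670), which encodes signal peptide peptidase, an enzyme that cuts leader peptides within the membrane, is known as the maternally expressed gene of the pair. It lay at 117, 108 and 119 CPM in WT replicates 1 to 3 and at 166, 169 and 224 CPM in KO replicates 1 to 3. All KO libraries were above all WT libraries, and KO replicate 3 was the highest. H13 rose by 0.70 on the log2 scale (standard error, SE, 0.127, edgeR quasi-likelihood adjusted p = 0.0101). Mcts2 (ENSMUSG00000042814, chr2:152687035-152687946), the paternally expressed retrogene, encodes a protein of the MCTS1 family, which acts in translation. It lay at 8.08, 7.31 and 7.73 CPM in WT and at 5.92, 5.79 and 5.09 CPM in KO, with every KO library below every WT library. Mcts2 fell by 0.46 (SE 0.141, adjusted p = 0.0455 by the same test). This call was close to the threshold and held in 3 of 13 alternative fits. The longest reading frames of Mcts2 and of its source gene Mcts1 are 85.4% identical, so reads may be split between them. The log2 ratio of H13 to Mcts2 counts within a library, which does not depend on scaling, was 3.85, 3.89 and 3.94 in WT and 4.81, 4.86 and 5.45 in KO. The ratio was thus higher by 1.15 in KO without overlap (exact permutation test, two-sided, p = 0.1, the smallest that 3 against 3 can give, and 0.3 adjusted over 6 ratios).

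Impact and Slc22a18 also rose. Impact (ENSMUSG00000024423), a paternally expressed gene whose product restrains the GCN2 kinase of the amino acid starvation response, lay at 83.5, 88.0 and 77.0 CPM in WT and at 114, 118 and 158 CPM in KO. No KO library reached down to the WT range, and KO replicate 3 was again the highest. The log2 fold change was 0.65 (SE 0.138, edgeR quasi-likelihood adjusted p = 0.0156). Slc22a18 (ENSMUSG00000000154, chr7:143473736-143499334) encodes a membrane transporter and is one of the maternally expressed genes of the Kcnq1 cluster. It lay at 2.95, 3.08 and 2.47 CPM in WT and at 4.68, 4.60 and 6.04 CPM in KO, without overlap. Its log2 fold change was 0.85 (SE 0.206, adjusted p = 0.0231).

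Sgce and Rtl1 fell, with every KO library below every WT library. Sgce (ENSMUSG00000004631, chr6:4674350-4747207), which encodes epsilon-sarcoglycan of the dystrophin-associated complex, lay at 23.2, 21.4 and 22.0 CPM in WT and at 15.9, 15.6 and 18.1 CPM in KO. KO replicate 3 was the KO library closest to WT, and the groups did not overlap. The log2 fold change was -0.42 (SE 0.0972, edgeR quasi-likelihood adjusted p = 0.0194). Rtl1 (ENSMUSG00000085925, chr12:109589193-109600330), a gene derived from a retrotransposon with a role in the placenta, was low, with 3.47, 3.75 and 3.04 CPM in WT and 2.1, 1.57 and 1.81 CPM in KO. All KO libraries were below WT, with a log2 fold change of -0.90 (SE 0.228, adjusted p = 0.0261). The annotation places 6 miRNAs antisense to the Rtl1 exon, and whether the counting used strand is not stated in the sources used here.

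**Figure D2:**
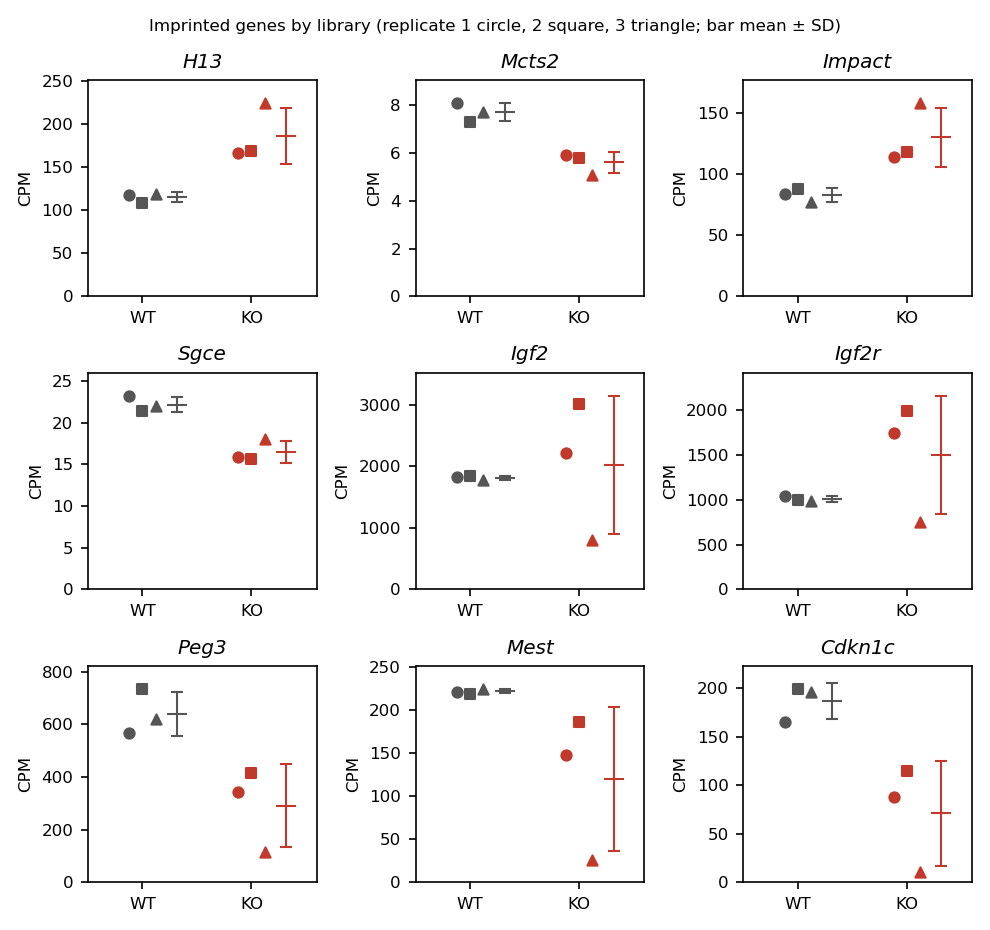
TMM-normalised CPM (y axis, from 0) of 9 imprinted genes in the 3 WT (grey) and 3 KO (red) libraries, with replicate 1 as circles, 2 as squares, 3 as triangles, and the mean with its SD as bars. H13 and Impact are higher and Mcts2 and Sgce lower in all 3 KO libraries, while KO replicate 3 is the lowest library for Igf2, Igf2r, Peg3, Mest and Cdkn1c.

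The growth regulators Igf2, Igf2r, Grb10 and Plagl1 did not pass over all libraries, and KO replicate 3 was the lowest library for each of them. Igf2 (ENSMUSG00000048583, chr7:142650766-142666816), the paternally expressed growth factor, lay at 1820, 1840 and 1780 CPM in WT and at 2220, 3010 and 809 CPM in KO. KO replicates 1 and 2 were above WT and KO replicate 3 was far below, so that the log2 fold change over all libraries was 0.15 (SE 0.417, edgeR quasi-likelihood adjusted p = 0.799). Without KO replicate 3 it was 0.53 (SE 0.104, adjusted p = 0.00203 by the same test). Igf2r (ENSMUSG00000023830, chr17:12682406-12769664), the maternally expressed receptor that takes IGF2 to the lysosome, showed the same order, with 1040, 995 and 992 CPM in WT and 1750, 1990 and 751 CPM in KO. Its log2 fold change was 0.57 (adjusted p = 0.219), and 0.89 without KO replicate 3 (SE 0.066, adjusted p = 4.94e-06). Grb10, which encodes the adaptor protein that restrains insulin and IGF1 receptors, lay at 1260, 1290 and 1220 CPM in WT and at 1170, 1270 and 778 CPM in KO. KO replicate 2 was inside the WT range, and the log2 fold change was -0.22 (adjusted p = 0.362) and -0.036 without KO replicate 3. Plagl1, which encodes a zinc-finger transcription factor, lay at 196, 159 and 168 CPM in WT and at 217, 214 and 116 CPM in KO. KO replicates 1 and 2 were above and KO replicate 3 below all WT libraries, with a log2 fold change of 0.064 (adjusted p = 0.852) and of 0.31 without KO replicate 3 (adjusted p = 0.00981).

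Cdkn1c (ENSMUSG00000037664, chr7:143458339-143461050), which encodes the cell cycle inhibitor p57 and is maternally expressed in the Kcnq1 cluster, had the lowest mean KO level relative to WT of the tested members over all libraries, through KO replicate 3. It lay at 165, 199 and 196 CPM in WT, at 88.4 and 115 CPM in KO replicates 1 and 2 and at 10.9 CPM in KO replicate 3. The KO libraries were at 47.4%, 61.5% and 5.84% of the WT mean, all below WT and far apart from each other. The mean was 187 ± 18.6 CPM in WT and 71.3 ± 54.0 CPM in KO (SD, n = 3 each), and the log2 fold change of -1.39 had a standard error of 0.701 (edgeR quasi-likelihood adjusted p = 0.168). Without KO replicate 3 the log2 fold change was smaller, -0.88, and passed (SE 0.111, adjusted p = 0.000144). Of its neighbours in the cluster, Slc22a18 rose as given above. Phlda2, which restrains placental growth, had 0, 2 and 1 counts in WT and 0, 3 and 6 in KO. Ascl2, a transcription factor of the trophoblast, had 0, 0 and 1 counts in WT and 2, 4 and 54 in KO, nearly all of them in KO replicate 3.

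In the Peg3 cluster, 3 neighbouring genes were lowest in KO replicate 3. Peg3 (ENSMUSG00000002265, chr7:6703892-6730431, minus strand) encodes a zinc-finger protein and is paternally expressed. It lay at 567, 734 and 620 CPM in WT and at 344, 415 and 116 CPM in KO, so that every KO library was below every WT library. The log2 fold change was -1.13 (SE 0.423, edgeR quasi-likelihood adjusted p = 0.0802), and -0.75 without KO replicate 3 (SE 0.109, adjusted p = 0.000333). Usp29 (ENSMUSG00000051527, chr7:6730578-6967219, plus strand), of the deubiquitinase family, is also paternally expressed. By its RefSeq start it lies on the far side of the 163 bases shown above. The GENCODE positions given here for Peg3 and Usp29 reach into that stretch, which holds 17 exonic bases of these genes. Usp29 lay at 4.32, 6.36 and 5.27 CPM in WT and at 2.29, 3.70 and 1.24 CPM in KO, again without overlap. Its log2 fold change was -1.14 (adjusted p = 0.0645) and -0.82 without KO replicate 3 (adjusted p = 0.026). The log2 ratio of Peg3 to Usp29 was 7.03, 6.85 and 6.87 in WT and 7.21, 6.80 and 6.53 in KO, a difference of -0.068 (exact permutation test, p = 0.8). The ratio lay between 6.53 and 7.21 in all 6 libraries, with an SD of 0.098 in WT and 0.35 in KO. A test on so few libraries cannot show that it was kept. The WT levels were 73.7 CPM per kb of gene length for Peg3 and 0.705 for Usp29. Zim1, the maternally expressed zinc-finger gene of the cluster, lay at 24.9, 29.1 and 26.2 CPM in WT and at 17.8, 25.5 and 6.14 CPM in KO, with KO replicate 2 inside the WT range. Its log2 fold change was -0.70 (adjusted p = 0.257) and -0.30 without KO replicate 3 (adjusted p = 0.101). The log2 ratio of Peg3 to Zim1 was lower in KO without overlap, at 4.51, 4.65 and 4.56 in WT and 4.27, 4.02 and 4.24 in KO, a difference of -0.40 (exact permutation test, p = 0.1, the smallest possible).

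Mest and Peg10 followed the same pattern. Mest (ENSMUSG00000051855, chr6:30723547-30748465) is a paternally expressed gene for a protein with a hydrolase fold. It lay at 221, 219 and 224 CPM in WT, at 148 and 186 CPM in KO replicates 1 and 2 and at 26.2 CPM in KO replicate 3. All KO libraries were below WT, with a log2 fold change of -0.89 (SE 0.6, edgeR quasi-likelihood adjusted p = 0.285) and of -0.41 without KO replicate 3 (adjusted p = 0.00257). An exon of Mest overlaps an exon of Copg2 on the opposite strand. Peg10, derived from a retrotransposon and needed in the placenta, lay at 62.9, 62.6 and 55.3 CPM in WT and at 53.3, 38.5 and 15.2 CPM in KO. Its log2 fold change was -0.76 (adjusted p = 0.18) and -0.39 without KO replicate 3 (adjusted p = 0.022). Peg10 and Sgce start close together in opposite directions and are both paternally expressed, yet their log2 ratio differed widely between KO libraries, at 1.44, 1.54 and 1.33 in WT and 1.74, 1.30 and -0.25 in KO (exact permutation test, p = 0.7). In KO replicate 3 Peg10 was low while Sgce was near its level in the other KO libraries.

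KO replicate 3 was over 2-fold below the mean of KO replicates 1 and 2 for 8 of the 23 tested members, Igf2, Igf2r, Peg3, Usp29, Zim1, Mest, Cdkn1c and Peg10, beside 6.87% of all genes. It was over 2-fold above that mean for Nnat alone, beside 4.57% of all genes. For 5 members (Igf2, Igf2r, Plagl1, Ube3a and Nnat) it lay on the other side of the WT mean from both other KO libraries, beside 16.1% of all genes. The median difference of the members from WT was -0.0021 in KO replicate 1, 0.098 in KO replicate 2 and -0.57 in KO replicate 3, and that of all genes was between -0.017 and -0.0032. Of 12 fibroblast markers, 3 were over 2-fold below in KO replicate 3 by the same measure. Over all libraries 3 of them (Fap, Pdgfra and Thy1) were lower in KO, 0 were higher and 9 did not pass. Their log2 fold changes were above 0 for 5 and below 0 for 7, and Fn1 and Vim lay above WT in every KO library. Without KO replicate 3, 2 fibroblast markers were higher and 4 lower, beside 23.9% and 24.2% of all genes. The part of the cell type markers in these values was not tested. Without KO replicate 3, 8 members were higher and 8 lower at an adjusted p under 0.05 (edgeR's quasi-likelihood test), beside 23.9% and 24.2% of 13529 genes. H13, Impact, Slc22a18, Igf2, Igf2r, Plagl1, Snrpn and Ube3a were higher there, and Mcts2, Rtl1, Sgce, Cdkn1c, Peg3, Usp29, Mest and Peg10 were lower. All 6 members called over all libraries were thus called without KO replicate 3 as well, Mcts2 narrowly (adjusted p = 0.0498 by the same test). Both fits share the other libraries, so this is not separate support.

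**Figure D3:**
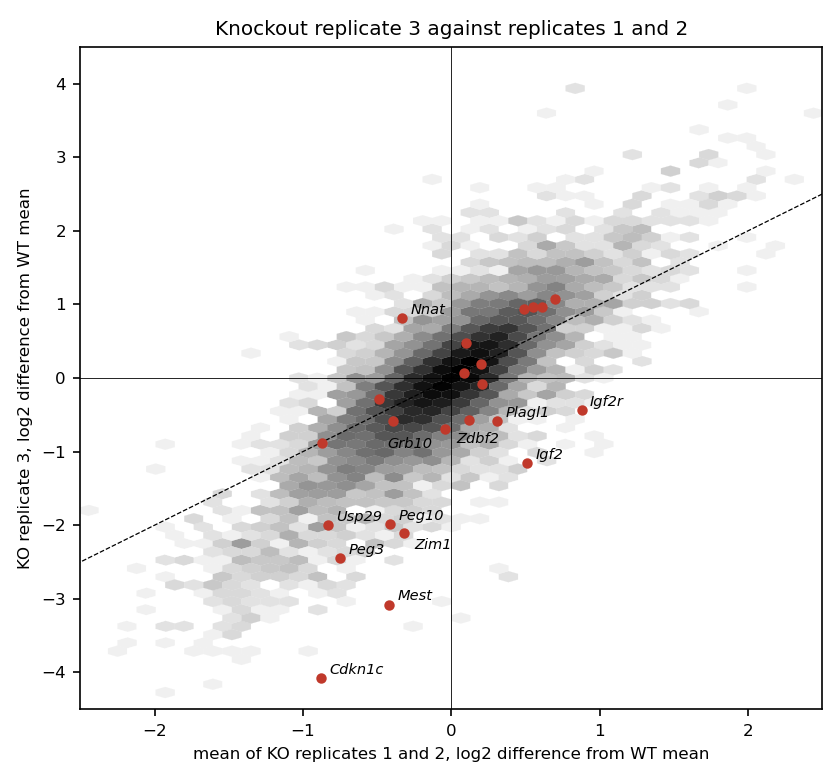
Log2 difference from the WT mean (CPM + 0.1) in KO replicate 3 (y axis) against the mean of KO replicates 1 and 2 (x axis) for all tested genes (grey hexagons, darker where more genes lie, on a log scale) and for the 23 tested imprinted genes (red points). The dashed line marks equal values, genes outside the axes are not drawn, and the named members are those farthest from the line, all but Nnat below it.

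The tested members in the Prader-Willi and Angelman region, Snrpn, Ndn and Ube3a, did not pass over all libraries. Snrpn, which encodes the SmN protein of the spliceosome, lay at 34.6, 35.8 and 35.8 CPM in WT and at 40.5, 41.0 and 40.4 CPM in KO. The KO libraries were all above WT by a small and even amount, with a log2 fold change of 0.20 (SE 0.0665, edgeR quasi-likelihood adjusted p = 0.0593). Its reading frame is 78.1% identical to that of Snrpb, and its exons overlap those of Snurf on the same strand. Ndn, a paternally expressed gene of the MAGE family, lay at 44.8, 43.5 and 42.9 CPM in WT and at 45.5, 48.6 and 60.6 CPM in KO (log2 fold change 0.24, adjusted p = 0.157). Magel2, of the same family, had 1, 0 and 3 counts in WT and 2, 3 and 4 in KO, at or near the floor. Ube3a, the ubiquitin ligase expressed from the maternal copy in neurons and from both copies elsewhere, lay at 157, 171 and 145 CPM in WT and at 183, 182 and 149 CPM in KO (log2 fold change 0.12, adjusted p = 0.416). The groups overlapped for Ube3a through KO replicate 3 and did not for Ndn. The log2 ratio of Snrpn to Ube3a differed by 0.082 (exact permutation test, p = 0.6), and that of Ndn to Magel2 by -1.08 (p = 0.4) on very few Magel2 counts.

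The other 4 tested members did not pass. Gnas, which encodes the stimulatory G protein subunit from several promoters with different imprints, was even across libraries, at 509, 521 and 483 CPM in WT and 532, 540 and 530 CPM in KO (log2 fold change 0.082, edgeR quasi-likelihood adjusted p = 0.366). A count per gene does not separate its promoters. Nap1l5, of the nucleosome assembly protein family, lay at 1.81, 2.47 and 1.57 CPM in WT and at 2.86, 3.08 and 3.81 CPM in KO without overlap (log2 fold change 0.74, SE 0.264, adjusted p = 0.0717). Nnat, a small membrane protein of the nervous system, lay at 4.80, 2.70 and 2.80 CPM in WT and at 2.1, 3.27 and 5.95 CPM in KO, with wide overlap (log2 fold change 0.14, adjusted p = 0.827). Zdbf2, a zinc-finger gene, also overlapped, at 7.13, 10.2 and 7.40 CPM in WT and 8.11, 9.59 and 5.42 CPM in KO (log2 fold change -0.094, adjusted p = 0.792).

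Compared per length of gene, in CPM per kb of the deposited gene length, the WT means ran from Igf2 at 384 through Grb10 at 241, Gnas at 128, Igf2r at 114, Cdkn1c at 96.1, Mest at 83.1 and Peg3 at 73.7. A middle group held Plagl1 at 33.2, Impact at 24.1, H13 at 21.1, Snrpn at 17.1, Ube3a at 16, Sgce at 12, Ndn at 11.8, Peg10 at 9.04 and Mcts2 at 8.40 CPM per kb. The low members were Nnat at 2.83, Zim1 at 2.46, Slc22a18 at 1.81, Nap1l5 at 1.06, Usp29 at 0.705, Zdbf2 at 0.652 and Rtl1 at 0.537. In KO the mean level of Igf2 was 427 CPM per kb and that of Cdkn1c 36.7. The 8 members that were over 2-fold lower in KO replicate 3 thus came from across this range, from Igf2 to Usp29.

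Read by the copy known to be expressed, 6 maternally expressed members were tested (Igf2r, Zim1, Cdkn1c, Slc22a18, Grb10 and H13), of which 2 were higher and 0 lower (edgeR's quasi-likelihood test, also 2 and 0 at an unadjusted p under 0.05), with a median log2 fold change of 0.17. Of 15 paternally expressed members, 1 was higher and 3 lower, with a median of -0.094. These counts stand beside 16.4% of all genes that were higher and 16.6% that were lower. Without KO replicate 3 the medians were 0.26 and -0.35, with 3 higher and 1 lower among the maternally expressed members and 4 higher and 7 lower among the paternally expressed ones, beside 23.9% and 24.2% of all genes. In KO replicate 3 alone the medians were -0.56 and -0.58. Ube3a and Gnas, whose copy depends on cell type or promoter, were in neither group. Members of 1 cluster share their control region, and the difference between the groups was not tested.

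**Figure D4:**
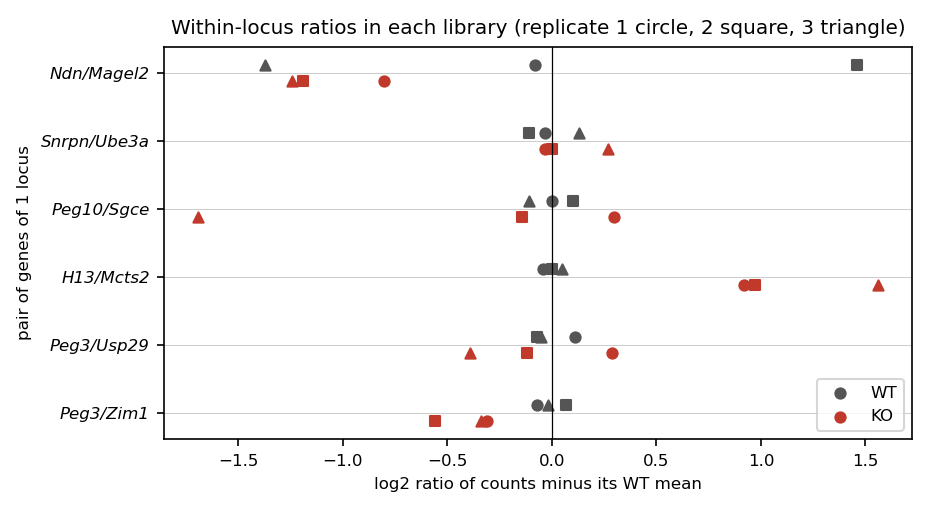
Log2 ratio of the counts (0.5 added) of 2 imprinted genes of 1 locus in each library (x axis, minus the WT mean of the ratio) for 6 pairs (y axis), with WT in grey and KO in red. The KO libraries lie above every WT library for H13/Mcts2 and below every WT library for Peg3/Zim1, while KO replicate 3 lies apart for Peg10/Sgce.

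The genes of a list of factors that set, keep or remove DNA methylation or act with them at imprints were lower or not called over all libraries. Of 18 tested genes of this list, 0 were higher and 8 lower in KO, beside 16.4% and 16.6% of all genes. The lower ones were Uhrf1, Dnmt1, Dnmt3b, Hells, Dnmt3a, Trim28, Zfp57 and Tet1, of which Tet1 encodes an enzyme that oxidises methylated cytosine and so acts towards its removal. The list had a median log2 fold change of -0.43 beside -0.00032 over all genes. Without KO replicate 3, 1 gene of the list was higher and 12 were lower, beside 23.9% and 24.2% of all genes, with a median of -0.29. At an unadjusted p under 0.05 over all libraries it was 0 higher and 11 lower (edgeR's quasi-likelihood test). Uhrf1, which brings DNMT1 to newly copied DNA, lay at 97.0, 86.2 and 89.8 CPM in WT and at 38.0, 32.8 and 15.5 CPM in KO (log2 fold change -1.66, SE 0.303, edgeR quasi-likelihood adjusted p = 0.0102). Dnmt1, the enzyme that copies methylation, lay at 210, 217 and 219 CPM in WT and at 112, 105 and 40.7 CPM in KO (log2 fold change -1.33, adjusted p = 0.0288). Both were lower in every KO library, and KO replicate 3 was the lowest. Zfp57, the factor whose motif letters are marked above, lay at 22.0, 22.3 and 23.9 CPM in WT and at 17.8, 16.8 and 18.2 CPM in KO (log2 fold change -0.37, adjusted p = 0.0215). Every KO library was below every WT library for Zfp57 too, but KO replicate 3 was not the lowest. Trim28, its partner, had a log2 fold change of -0.52 (adjusted p = 0.0343). DNA methylation itself was not measured in these files.

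The genes next to the imprinted clusters were described for comparison. Of 32 nearest tested neighbours that are not on either list of imprinted genes, 2 were higher and 5 lower, beside 16.4% and 16.6% of all genes, with a median log2 fold change of -0.18. With KO replicate 3 left out, 6 were higher and 11 lower, beside 23.9% and 24.2%, with a median of -0.14. Begain, 473 kb before the first member of the Dlk1-Dio3 cluster, lay at 12.9, 16.7 and 14.7 CPM in WT and at 3.96, 4.37 and 3.14 CPM in KO (log2 fold change -1.95, SE 0.175, edgeR quasi-likelihood adjusted p = 0.00231). Rtl1, the only member of that cluster with counts here, was also below WT in every KO library. Osbpl1a, 14.0 kb before Impact, fell by 0.52 on the log2 scale (adjusted p = 0.0142) while Impact rose. The other neighbours that passed were Chrna7 (1.47) and Pdk4 (1.48) among the higher genes and Fignl1 (-1.46), Zfp521 (-0.66) and Eef1b2 (-0.36) among the lower ones, as log2 fold changes.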

How the data were processed

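RNA-seq of 3 WT and 3 KO cultures was analysed, with genotype and replicate number taken from the labels. The authors prepared stranded poly(A) libraries, mapped read pairs with HISAT2 2.1.0 to the GRCm38/mm10 genome and deposited raw read counts per gene, as whole numbers without normalization, with gene lengths. The counting program and its strand setting are not given in the sources used here. The authors also deposited FPKM values from Cufflinks 2.1.1 for 12633 genes (23 of the members), used here only for the study's threshold. Their columns of fold changes and FDR were not used.

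The counts were analysed in R 4.3.3 with edgeR 4.0.16: TMM factors, filterByExpr at its defaults (13386 genes left) and the quasi-likelihood test without covariates. Adjustment was Benjamini-Hochberg over all tested genes, and a gene passed at an adjusted p under 0.05. The SE of a log2 fold change is its size over the root of the F statistic. Differences of single libraries were taken as log2(CPM + 0.1), and within-locus ratios as log2 of counts with 0.5 added, tested by an exact permutation test. Positions came from GENCODE M21, matched by Ensembl identifier, and start sites from RefSeq for GRCm38.p6. All members are named, and from the other imprinted genes, the maintenance factors and the neighbours those that passed, at most 10 of each by absolute log2 fold change. Of each cell type list at most 2 markers could be named. Other fibroblast, macrophage and epithelial markers, among them Fap, Pdgfra and Thy1, were named outside that rule after their values were seen. The members, lists and tests were chosen with earlier results of these data known. On simulated counts with the sizes of these libraries, the quasi-likelihood test recovered 64% of 100 genes with a simulated log2 change of 1 and 92% of 100 with one of 2, with 14 unchanged genes called among 13419 tested. The simulated libraries were drawn independently with 1 dispersion per gene. They held no library apart like KO replicate 3 and no difference in Y-linked transcripts, so these rates may not hold for the real libraries. Totals of 20545442 to 21746898 counts set a floor of 3 counts, which covers counting error only. Alternatives were RLE factors, library size only, no filter, DESeq2 1.42.0, a replicate block, a Y term, stricter thresholds, and each library left out.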

Additional observations from a re-analysis of the deposited data

How the results depend on the processing

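Over all libraries 3 members were higher and 3 lower. RLE size factors and scaling by library size changed none of the calls of the 23 tested members. In the fit with a Y term the genotype difference rests on KO replicate 2 against WT, as given above. The counts fell to 0 higher and 0 lower with a Y term (3 and 2 at an unadjusted p under 0.05 in edgeR), at an adjusted p under 0.01 and at the thresholds of the study. In the 4 libraries with Y-linked transcripts, where KO is 1 library assumed to vary like WT, 4 were higher and 6 lower. DESeq2 gave 4 higher, with Ascl2 added, and 3 lower, with Usp29 in place of Mcts2. Leaving out 1 library gave 0 to 8 higher and 0 to 8 lower. The lower count was 0 without WT replicate 1, 2 or 3 and 1 without KO replicate 1 or 2, the higher count was 1 without WT replicate 1 or 3 and 0 without WT replicate 2, and both were 8 without KO replicate 3. The replicate numbers did not pair the samples (correlations of same-numbered libraries -0.0647, 0.0367 and 0.0112), and the fit with a replicate block gave 2 higher (H13 and Impact) and 0 lower (6 at an unadjusted p under 0.05). H13 was called in 11 of 13 alternative fits, Impact in 9, Rtl1 and Slc22a18 in 7 each, Sgce in 6 and Mcts2 in 3. Some members that did not pass changed sign, and the cause was not tested. Igf2 was at -0.035 with a replicate block and between -0.26 and 0.53 with 1 library left out. Plagl1 ran from -0.076 to 0.31, Nnat from -0.35 to 0.45 and Zdbf2 from -0.28 to 0.11 with 1 library left out. With a Y term Grb10 was at 0.023, Nnat at -0.068 and Zdbf2 at 0.22, and in the libraries with Y-linked transcripts at 0.025, -0.066 and 0.22. Depth limited Phlda2, Magel2 and Ascl2, which had 0 to 3 counts in each WT library.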

Other observations

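A second list of 46 imprinted genes, written with earlier results known, had 37 genes in the table and 33 tested. Of these, 10 were higher and 4 lower in KO (edgeR's quasi-likelihood test, adjusted p under 0.05), beside 16.4% and 16.6% of all genes, with a median log2 fold change of 0.11. Without KO replicate 3, 13 were higher and 8 lower, beside 23.9% and 24.2% of all genes, with a median of 0.19. Dlk1, a membrane ligand of the fibroblast and preadipocyte that neighbours Rtl1, had the largest log2 fold change among the genes of the list that passed. It lay at 55.8, 83.8 and 84.0 CPM in WT and at 15.1, 15.2 and 5.66 CPM in KO, with all KO libraries below WT (log2 fold change -2.64, SE 0.38, adjusted p = 0.00585). Begain, Dlk1 and Rtl1, which lie in this order on chromosome 12, fell, whereas Dio3 of the same cluster (log2 fold change 0.94, adjusted p = 0.238) and Ppp2r5c beyond it (-0.074, adjusted p = 0.402) did not pass. Peg12 lay at 25.0, 28.1 and 24.1 CPM in WT and at 13.9, 12.6 and 13.3 CPM in KO (log2 fold change -0.95, adjusted p = 0.00321), an even fall in all 3 KO libraries, whereas its neighbours Ndn and Snrpn did not pass. Chrac1 (-0.43) and Gab1 (-0.32) were the other lower genes, as log2 fold changes.

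The higher genes of the list were Asb4 (log2 fold change 1.64), Qpct (1.11), Ddc (1.0), the paraoxonase genes Pon2 (0.86) and Pon3 (0.78), Cobl (0.81), Blcap (0.73), Tssc4 (0.70), Osbpl5 (0.42) and Cd81 (0.31). Pon2, Pon3 and Asb4 lie in the same cluster as Peg10 and Sgce, of which Sgce fell. Ddc and Cobl flank Grb10, which did not pass. Tssc4, Osbpl5 and Cd81 lie in the Kcnq1 cluster with Slc22a18, which also rose, and with Cdkn1c, whose KO libraries were all below WT. Ddc, which encodes the decarboxylase that makes dopamine and serotonin, lay at 6.23, 6.45 and 7.16 CPM in WT and at 14.4, 12.6 and 12.7 CPM in KO. Asb4 was low, at 1.33, 0.902 and 0.569 CPM in WT and 2.96, 1.95 and 3.85 CPM in KO. None of the 10 higher genes had overlapping libraries, so their differences from WT had the same direction in all KO libraries. They were picked by the test on these same libraries, so this is not separate support. Of the 33 tested genes of the list 24 did not overlap, beside 54.8% of all genes.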
